A study of Mus musculus with 4 samples.

Results

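The genes described here encode the degradative machinery of the lysosome: its soluble hydrolases and their activator proteins, its membrane proteins, the mannose 6-phosphate sorting route that delivers enzymes to it, the proton pump that acidifies it, and the Mitf/Tfe transcription factors. The list holds 44 genes, chosen by name, of the 19751 genes with an assigned probe on the array. It comprises 19 soluble hydrolases, 2 activator proteins, 6 membrane proteins, 3 sorting genes, 10 subunits or accessory proteins of the proton pump and 4 transcription factors. For 43 of the 44 a probe was assigned, and that probe was well above background on all 4 arrays, so none of the 43 entered through 1 genotype alone. No probe was assigned to Cd68, which is not analysed here.

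The samples were alveolar macrophages, the phagocytes of the lung airspaces, of wild-type (WT) mice and of mice without the transcription repressor Bach2 (Bach2KO). The sources used here do not give strain, age, sex, treatment or the way the Bach2 allele was inactivated. Flow-sorted cells of several mice were combined, 8 for WT and 3 (series design text) or 4 (treatment protocol) for Bach2KO. Each genotype gave 1 RNA sample, which was split in 2, labelled with Cy3 and hybridised to Agilent mouse arrays. The 2 arrays of a genotype are therefore technical repeats of 1 pool. No test between genotypes can be made, and an SD given after ± covers labelling and hybridisation only.

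Values are log2 processed signal relative to the 75th percentile of the same array, and a difference is Bach2KO minus WT on that scale. Higher and lower calls required a difference of 2-fold or more, in 1 direction, in each of the 4 pairings of a Bach2KO with a WT array. This is a rule of size. Levels of different probes are not compared with each other. In a bulk RNA sample, fewer cells that express a gene and less of its RNA per cell cannot be told apart. All 18 alveolar macrophage markers examined were well above background on the 4 arrays. However, 8 of them were called lower in Bach2KO and 1 (Fabp4) higher. Among the 8 were Fabp1 (148-fold lower), Cidec (68.3-fold) and Siglecf (12.6-fold). The 75th percentile lay between 979 and 1513 units of processed signal, between 27125 and 27917 probes per array were well above background, and 15122 genes were measured. The Bach2 probe was well above background on 1 array of each genotype, at -6.32 and -6.28 with WT RNA and -5.16 and -8.13 with Bach2KO RNA. It therefore gave no check of the genotype labels.

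Lysosomal hydrolases are made in the endoplasmic reticulum, tagged with mannose 6-phosphate in the Golgi, bound there by mannose 6-phosphate receptors and carried to endosomes that mature into lysosomes. The vacuolar proton pump (V-ATPase) lowers the luminal pH at which these enzymes work, and heavily glycosylated membrane proteins such as the LAMPs line the organelle. Tfeb, Tfe3 and Mitf bind E-box elements in the promoters of many lysosomal genes. In alveolar macrophages this machinery degrades inhaled particles, dying cells and surfactant.

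Of the 43 measured members, 7 were called higher in Bach2KO and none lower, while 36 met neither condition. Among all measured genes 8.37% were called higher and 5.9% lower, against 16.3% and 0 of the members. The 7 were Igf2r, Cd63, Atp6v0a1, Atp6v1a, Naglu, Atp6v1c1 and Psap, in order of decreasing difference. The median difference was 0.44 over the members and 0.06 over all measured genes. Both Bach2KO arrays lay above both WT arrays for 34 members, a separation seen for 45.6% of all measured genes, and below them for 8, against 39.5% of all genes. For Tfec alone the arrays of the genotypes overlapped. Arrays of the same RNA differed by at most 0.21 for any member in WT (Galc) and by at most 0.17 in Bach2KO (Atp6v1b2).

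The direction of 22 of the 43 differences turned when the arrays were scaled to 9 spike-in probes. With median centring 4 turned, and with quantile normalization 1. Agilent's spike-in probes, which detect synthetic RNAs meant to be added to each labelling reaction in the same amount, were brighter relative to the 75th percentile on the Bach2KO arrays, by 0.72 on the log2 scale. Scaling to them lowers every difference by that amount. The members' median then was -0.28 and that of all measured genes -0.66, with 13 of 43 members and 15.1% of all genes above 0. Igf2r and Cd63 remained called higher, the other 5 calls ended, and Gla, Idua, Ids and Tfeb were called lower, against 4.15% of all genes called higher and 21% lower with this scaling. The distance between a member and the median gene is the same with spike-in scaling as with the 75th percentile.

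**Figure D1:**
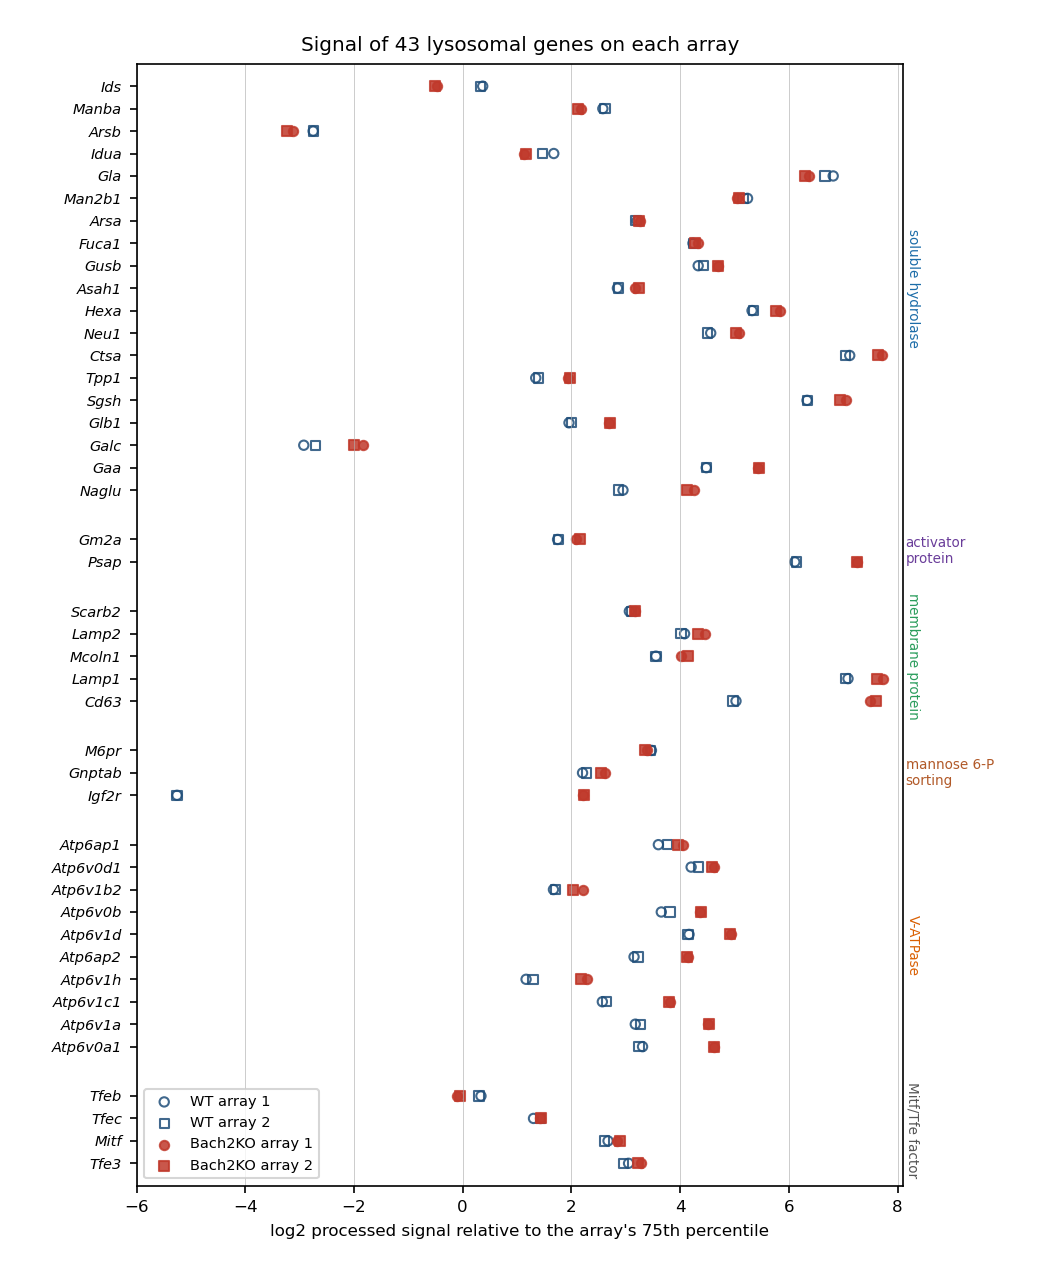
Log2 processed signal relative to the 75th percentile (horizontal axis) of 43 lysosomal genes, grouped by class, on the 2 WT arrays (open symbols) and the 2 Bach2KO arrays (filled symbols). The arrays of 1 genotype nearly coincide for each gene, and Igf2r shows the widest gap between genotypes, from -5.25 to 2.23.

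An E-box was present in the promoter windows of 13 members and absent from those of 26. Since E-box elements are known from the promoters of many lysosomal genes, the shares below are a description and no independent result. RefSeq promoter windows of 300 bases (250 before to 50 after the transcript start, GRCm38.p6) were found for 39 of the 44 members, 46 windows in all. The E-box CACGTG, bound by Mitf/Tfe factors among other proteins, was present in 28.3% of the members' windows and in 7.15% of all 32851 windows. Extended by a T to TCACGTG on either strand, it was present in the same 13 member windows (28.3%) and in 3.77% of all. The still longer GTCACGTG, which contains both shorter motifs, stood in 23.9% of the members' windows and 2.25% of all. The related TCATGTG was found in 10.9% and 3.77%. Motifs were searched on both strands, and a match is only a run of letters.

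The 150 bases before the transcript start are printed for 3 called members with an E-box (Igf2r, Naglu, Atp6v1a), for 2 members with several E-boxes that were not called (Lamp1, Mcoln1) and for Cd63, which was called and has none. They are written 5′ to 3′ on the gene's strand, with CACGTG and TCATGTG in capitals. The windows are chr17:12769707-12769856 (minus strand) for Igf2r, chr11:101069944-101070093 (plus) for Naglu, chr16:44139260-44139409 (minus) for Atp6v1a, chr8:13159011-13159160 (plus) for Lamp1, chr8:3500369-3500518 (plus) for Mcoln1 and chr10:128909195-128909344 (plus) for Cd63.
Igf2r: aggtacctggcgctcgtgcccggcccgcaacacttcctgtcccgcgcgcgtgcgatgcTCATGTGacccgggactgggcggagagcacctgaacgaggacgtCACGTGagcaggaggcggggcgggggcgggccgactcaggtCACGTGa
Naglu: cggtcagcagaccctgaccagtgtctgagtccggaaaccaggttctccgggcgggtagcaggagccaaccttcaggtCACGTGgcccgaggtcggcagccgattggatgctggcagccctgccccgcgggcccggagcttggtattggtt
Atp6v1a: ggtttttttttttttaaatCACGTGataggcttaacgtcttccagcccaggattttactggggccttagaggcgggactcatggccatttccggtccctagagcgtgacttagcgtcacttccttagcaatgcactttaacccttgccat
Lamp1: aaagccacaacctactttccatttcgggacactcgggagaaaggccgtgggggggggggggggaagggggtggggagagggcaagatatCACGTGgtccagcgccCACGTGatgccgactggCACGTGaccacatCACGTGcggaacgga
Mcoln1: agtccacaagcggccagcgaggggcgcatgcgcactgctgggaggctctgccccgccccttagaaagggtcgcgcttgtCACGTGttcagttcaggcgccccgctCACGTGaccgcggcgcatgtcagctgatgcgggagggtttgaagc
Cd63: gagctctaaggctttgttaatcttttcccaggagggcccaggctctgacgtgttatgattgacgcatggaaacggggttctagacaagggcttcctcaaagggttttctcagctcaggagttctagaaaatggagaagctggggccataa

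Of 21 E-box matches in the 13 windows, 16 lay within 100 bases before the transcript start. Lamp1 held 4, at 61, 45, 28 and 15 bases before it, Mcoln1 held 2, at 71 and 45, and Igf2r 2, at 48 and 7. By class, 7 of 18 hydrolases with a window had an E-box, 3 of 7 proton pump genes, 2 of 6 membrane proteins, and none of the 4 Mitf/Tfe genes. Of the measured members with an E-box 3 of 13 were called higher, and of those without 3 of 25, against 8.37% of all measured genes. The median differences of members with and without an E-box were 0.64 and 0.32. Their ranges, from -0.41 to 7.48 and from -0.85 to 2.55, overlapped widely.

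**Figure D2:**
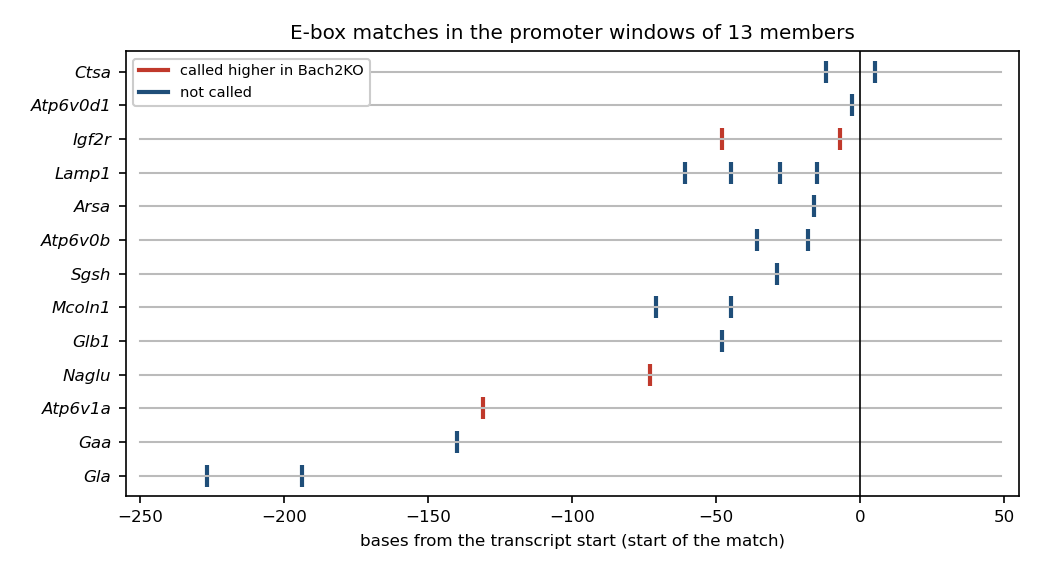
Position of each E-box match (horizontal axis, bases from the transcript start, 0 being the first transcribed base) in the promoter windows of 13 members, with genes called higher in Bach2KO in red and the others in blue. Of the 21 matches 16 stand in the last 100 bases before the start, those of the called genes Igf2r and Naglu among them.

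Among the sorting genes, Igf2r alone was called. It encodes the cation-independent mannose 6-phosphate receptor, which carries newly made hydrolases to endosomes and also takes up insulin-like growth factor 2. Its probe, assigned to transcript NM_010515, read -5.25 and -5.25 with WT RNA and 2.22 and 2.23 with Bach2KO RNA, a 179-fold higher signal. The signal was low but well above background on both WT arrays, and the difference was 6.76 with spike-in scaling. With normexp background correction it was smaller, 5.92 followed by the 75th percentile and 5.80 followed by quantile normalization. Only 1 probe represents the gene, so no second probe bears on this value.

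M6pr, which encodes the smaller, cation-dependent mannose 6-phosphate receptor, was not called. It read 3.47 and 3.45 with WT RNA and 3.39 and 3.35 with Bach2KO RNA, a difference of -0.09, and its other probe gave -0.18. Gnptab, the catalytic subunit precursor of the enzyme that begins the mannose 6-phosphate tag, read 2.21 and 2.27 in WT and 2.61 and 2.54 in Bach2KO, a difference of 0.33. Neither met the 2-fold rule, and with spike-in scaling the values were -0.81 for M6pr and -0.38 for Gnptab. Further sorting factors comprised the GGA adaptors, the AP-1 complex, sortilin, the retromer and Gnptg and Nagpa. Of the 14 measured, 1 was called higher (7.14%, near the 8.37% of all measured genes) and none lower, with a median of -0.10. The called one, the adaptor gene Gga2, differed by 1.10.

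Membrane proteins were led by Cd63, which encodes a tetraspanin of late endosomes, lysosomes and secreted vesicles. It read 5.03 and 4.97 with WT RNA and 7.49 and 7.61 with Bach2KO RNA, a 5.86-fold higher signal. The difference of 2.55 was 1.83 with spike-in scaling and remained called. The other 4 measured membrane proteins lay between 0.08 and 0.61, and none was called. Lamp1, a major glycoprotein of the lysosomal membrane whose promoter holds 4 E-boxes, read 7.09 and 7.04 in WT and 7.72 and 7.63 in Bach2KO, a difference of 0.61. Mcoln1, the lysosomal calcium channel mucolipin 1, differed by 0.52.

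Lamp2, the partner of Lamp1 that serves in chaperone-mediated autophagy and autophagosome fusion, differed by 0.35 through its brighter probe and by 0.85 through a probe assigned to another of its transcripts (NM_001017959). Scarb2, the receptor that delivers beta-glucocerebrosidase to lysosomes without mannose 6-phosphate, had the smallest difference of the class. It read 3.07 and 3.11 in WT and 3.17 and 3.17 in Bach2KO, 0.08 apart. The median of the class was 0.52, and -0.20 with spike-in scaling, where Lamp1, Lamp2, Mcoln1 and Scarb2 were all below 0.

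Proton pump genes had the highest median of the larger classes, 0.86, and all 10 were above 0. Each had both Bach2KO arrays above both WT arrays, a separation seen for 45.6% of all measured genes. Called higher were 3 of the 10, against 8.37% of all measured genes. Atp6v0a1, which encodes an isoform of the large membrane subunit a through which protons pass, read 3.31 and 3.24 in WT and 4.63 and 4.63 in Bach2KO, a 2.55-fold higher signal. Atp6v1a, the catalytic subunit that binds ATP, read 3.18 and 3.28 against 4.51 and 4.53, 2.45-fold higher, and its other probe was called as well, with a difference of 1.23. Atp6v1c1, subunit C, which joins the cytosolic V1 sector to the membrane V0 sector, read 2.57 and 2.64 against 3.82 and 3.79, 2.29-fold higher.

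The other pump genes fell short of the rule. Atp6v1h, a regulatory V1 subunit, had array pairs from 0.88 to 1.12, on both sides of the threshold. Atp6ap2, the accessory protein also known as the prorenin receptor, differed by 0.94, the V1 stalk subunit gene Atp6v1d by 0.77, the V0 proteolipid gene Atp6v0b by 0.64 and the B2 subunit gene Atp6v1b2 by 0.44. Atp6v0d1, subunit d of V0, differed by 0.33. The smallest difference was that of the accessory protein gene Atp6ap1, at 3.60 and 3.76 in WT and 4.06 and 3.95 in Bach2KO, 0.32 apart, and its other probe gave 0.40.

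With spike-in scaling the class median was 0.14, 6 of the 10 pump genes stayed above 0 and none was called in either direction. With that scaling 15.1% of all measured genes were above 0, 4.15% were called higher and 21% lower. The 3 genes called above were then 0.63 (Atp6v0a1), 0.57 (Atp6v1a) and 0.48 (Atp6v1c1). The remaining pump subunits had 2 of 12 measured genes called higher, 1 lower and a median of 0.46. The 2 were Atp6v0c, the main proteolipid of the proton-carrying ring, with a difference of 1.60, and Tcirg1, the a3 subunit of macrophages and osteoclasts, with 1.15. Atp6v0e2, an isoform of a small V0 subunit, was not well above background in Bach2KO and was at least 3.03-fold lower there.

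**Figure D3:**
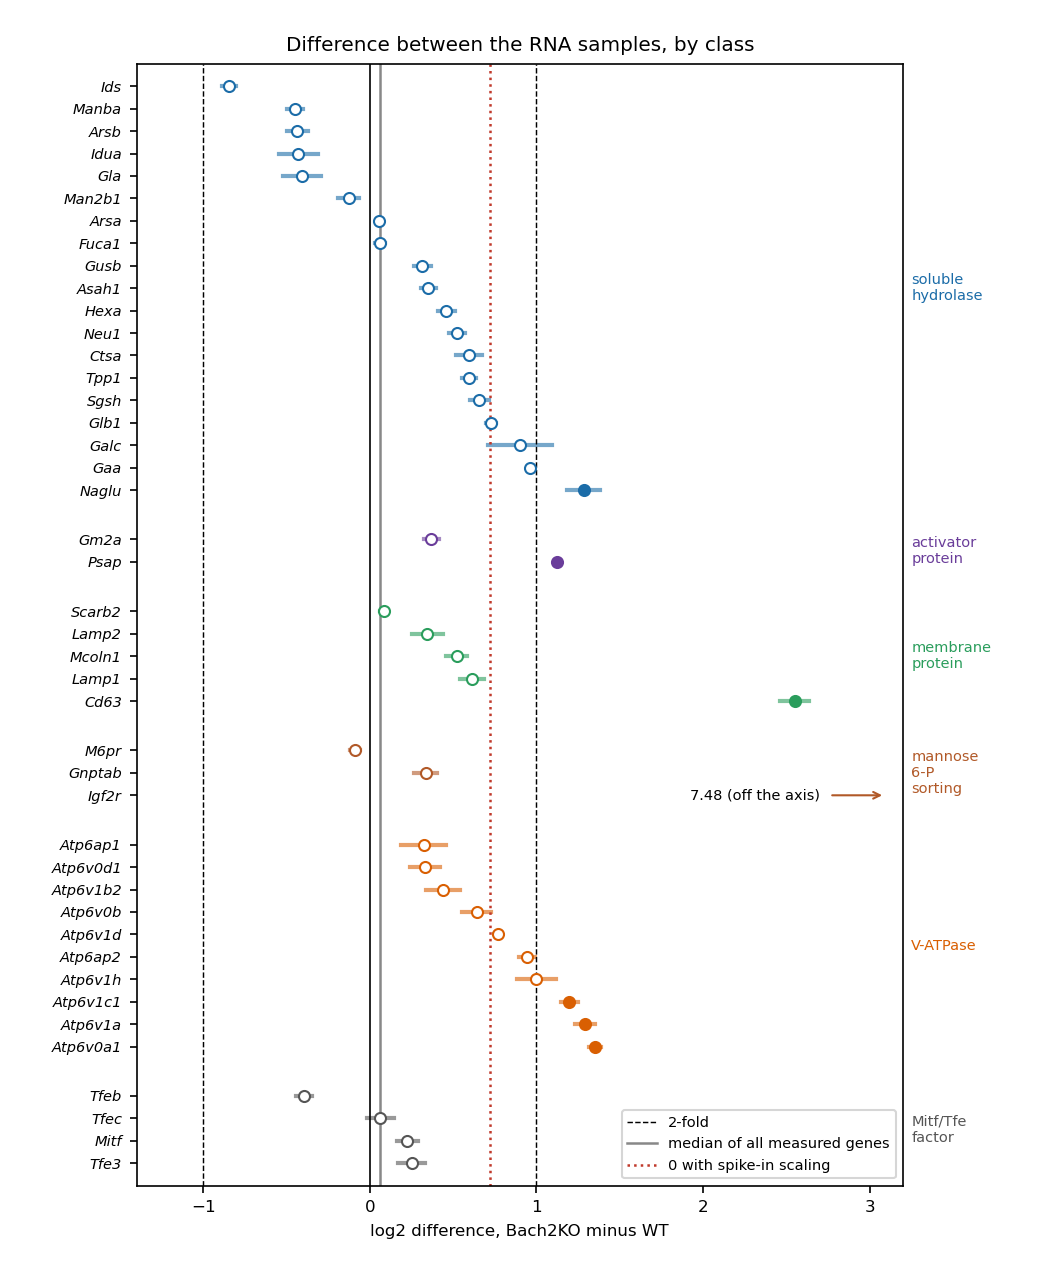
Log2 difference between Bach2KO and WT (horizontal axis) of each measured member by class, with points for the difference of array means, bars for the range over the 4 array pairs and filled points for called genes. Naglu, Psap, Cd63 and 3 pump genes lie beyond the 2-fold line, Igf2r (7.48) is off the axis, and a dotted line marks where 0 falls with spike-in scaling.

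Soluble hydrolases differed in both directions, with a median of 0.35 and values from -0.85 to 1.28. Only Naglu was called among 19, against 8.37% of all measured genes called higher and 5.9% lower. Naglu encodes alpha-N-acetylglucosaminidase, an enzyme of heparan sulfate breakdown, and read 2.95 and 2.87 in WT and 4.25 and 4.13 in Bach2KO, 2.43-fold higher. Gaa, the acid alpha-glucosidase that degrades lysosomal glycogen, came closest to the threshold without reaching it, with 4.48 and 4.48 in WT, 5.44 and 5.45 in Bach2KO and a difference of 0.96. Galc, which cleaves galactosylceramide, differed by 0.90, with array pairs from 0.71 to 1.10.

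The lowest value belonged to Ids, iduronate 2-sulfatase, which acts on heparan and dermatan sulfate. It read 0.37 and 0.33 with WT RNA and -0.48 and -0.52 with Bach2KO RNA, 1.80-fold lower, short of the 2-fold rule. Enzymes of glycosaminoglycan breakdown thus lay at both ends of the class. Besides Naglu and Ids they comprise Sgsh (0.66), Gusb (0.32), Idua (-0.43) and Arsb (-0.43), of which 3 were above 0 and 3 below, with a median of -0.06. Probes disagreed for 2 of these. The dimmer probe of Sgsh, heparan N-sulfatase, was called higher with a difference of 2.45, and for Idua, alpha-L-iduronidase, a second probe, dimmer on average over the 4 arrays but brighter with Bach2KO RNA, gave 0.24. Without WT replicate 1 that second probe was the brighter one, and the value of Idua was 0.25.

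Of the 6 glycolipid-degrading enzymes 5 had both Bach2KO arrays above both WT arrays, against 45.6% of all measured genes. These 5 were Galc, Glb1 (beta-galactosidase, 0.72), Hexa (the alpha subunit of beta-hexosaminidase, 0.46), Asah1 (acid ceramidase, 0.35) and Arsa (arylsulfatase A, 0.06). Gla, alpha-galactosidase A, went the other way, with 6.82 and 6.67 in WT and 6.37 and 6.30 in Bach2KO, a difference of -0.41. With spike-in scaling Gla differed by -1.13, and of these 6 genes Galc (0.18) and Glb1 (0.01) stayed above 0.

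Enzymes that trim glycoprotein sugar chains were the sialidase gene Neu1 (0.52), the fucosidase gene Fuca1 (0.06) and the mannosidase genes Man2b1 (-0.13) and Manba (-0.45), with a median of -0.03. A dim second probe of Fuca1 gave -0.64. The serine carboxypeptidase gene Ctsa, whose protein also protects Neu1 and beta-galactosidase from degradation, and the tripeptidyl peptidase gene Tpp1 both differed by 0.59, although a much dimmer probe of Ctsa gave -0.32. Over the class 13 of 19 hydrolases had both Bach2KO arrays above both WT arrays and 6 had them below. Of all measured genes 45.6% were separated upward and 39.5% downward in this way. With spike-in scaling the class median was -0.37, and Gla, Idua and Ids were called lower, as were 21% of all measured genes.

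A list of other lysosomal hydrolases and cofactors had 8 of 28 measured genes called higher, none lower and a median of 0.93. Among all measured genes 8.37% were called higher and 5.9% lower. Plbd1, a phospholipase B-like protein, was 12.6-fold higher, the carboxypeptidase gene Scpep1 3.02-fold and the tartrate-resistant phosphatase gene Acp5 2.81-fold. The hyaluronidase gene Hyal1, well above background on 1 of the 2 WT arrays, read -6.43 and -6.36 in WT and -4.28 and -4.19 in Bach2KO. With spike-in scaling 2 genes of this list were called higher and 2 lower, with a median of 0.21. Of all measured genes 4.15% were called higher and 21% lower with that scaling. Other lysosomal membrane proteins had 7 of 26 measured genes called higher, none lower and a median of 0.49, which became 5 higher, 2 lower and -0.23 with spike-in scaling. In this list the two-pore channel gene Tpcn1 was 9.97-fold higher, the glycoprotein gene Gpnmb 6.79-fold and the mucolipin 2 gene Mcoln2 4.46-fold. The peptide transporter gene Abcb9 went from -2.66 and -2.63 in WT to -0.73 and -0.56 in Bach2KO.

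Both activator proteins were above 0, and Psap was called. It encodes prosaposin, the precursor of the saposins that present sphingolipids to hydrolases, and read 6.11 and 6.14 with WT RNA and 7.25 and 7.25 with Bach2KO RNA, 2.18-fold higher. This call was the least stable of the 7: the difference of 1.12 no longer met the rule with median centring (0.99), quantile normalization (0.90), normexp correction followed by the 75th percentile (1.06) or by quantile normalization (0.82), and spike-in scaling (0.41). Gm2a, the GM2 ganglioside activator that works with beta-hexosaminidase A, read 1.75 and 1.76 in WT and 2.09 and 2.16 in Bach2KO, a difference of 0.37.

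None of the 4 Mitf/Tfe factor genes was called, and their median was 0.14. Mitf read 2.67 and 2.60 in WT and 2.84 and 2.89 in Bach2KO, a difference of 0.23, and 0.02 by its other probe. Tfe3 read 3.05 and 2.96 against 3.29 and 3.22, 0.25 apart. Tfeb, the best known activator of lysosomal genes, was the one factor below 0. It read 0.34 and 0.30 with WT RNA and -0.11 and -0.05 with Bach2KO RNA, a difference of -0.40. Tfec, a family member expressed mainly in the macrophage lineage, read 1.30 and 1.44 in WT and 1.42 and 1.45 in Bach2KO, so that its arrays overlapped. With spike-in scaling all 4 were below 0, and Tfeb was called lower (-1.11). These are transcript levels, and the factors are also controlled through phosphorylation and nuclear entry, which arrays do not measure.

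Genes of that control had a median of 0.20. Among them are genes of mTORC1 and the Folliculin complex, which on the lysosome retain the factors in the cytoplasm. The list also held the calcineurin genes Ppp3cb (-0.54) and Ppp3r1 (0.27) and the exportin gene Xpo1 (-0.14). Of the 18 measured, 2 were called higher (11.1%, near the 8.37% of all measured genes) and none lower. Fnip2, a Folliculin partner, was 3.11-fold higher and the Rag GTPase gene Rragd 2.96-fold. Flcn itself differed by 0.18 and Mtor by -0.18. With spike-in scaling none was called higher and 3 lower, against 4.15% and 21% of all measured genes.

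**Figure D4:**
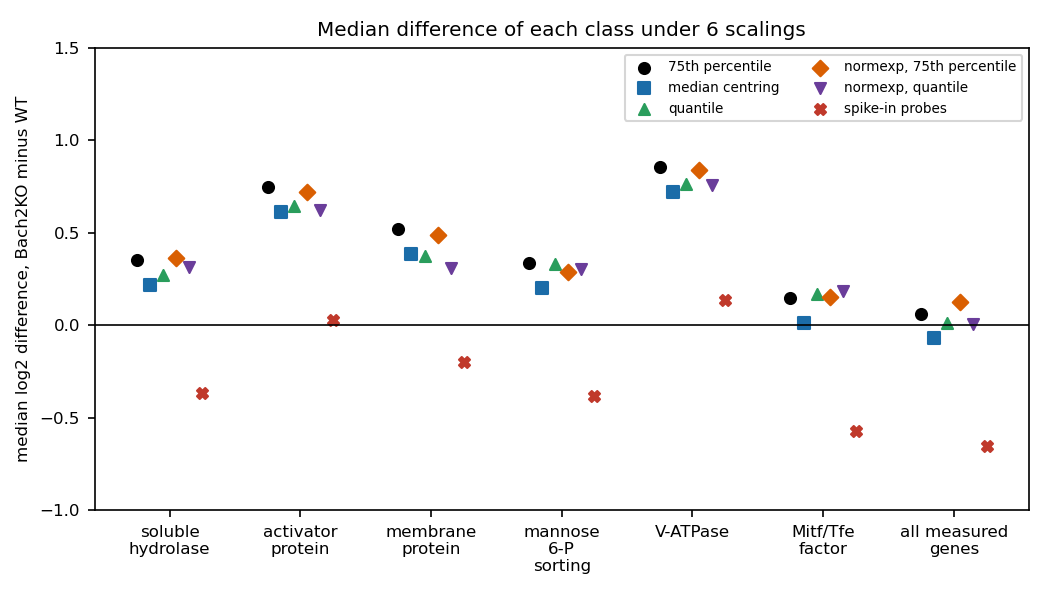
Median log2 difference between Bach2KO and WT (vertical axis) of each class and of all measured genes under 6 ways of background correction and scaling, with 1 symbol per way. Proton pump genes (0.86) lie above hydrolases (0.35) and Mitf/Tfe factors (0.14) with each of them, whereas the sign of 4 classes turns with spike-in scaling.

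Marker lists of other cell types differed too, and their part in these results was not tested. Their counts stand beside 8.37% called higher and 5.9% lower among all measured genes. Osteoclast markers, a cell type whose lysosomes and pump are highly expressed, had 4 of 8 measured genes called higher and none lower, with a summed signal (in units of the 75th percentile) of 177 to 178 in WT and 506 to 508 in Bach2KO. This sum rests mostly on Acp5, Ctsk and Atp6v0d2, with mean levels of 6.41, 5.64 and 5.30 in WT and 7.90, 7.58 and 6.15 in Bach2KO. Acp5 and Atp6v0d2 stand both in this list and in the lysosomal lists above. Of the 8 measured genes 7 were above 0, Ocstamp by only 0.10, while Nfatc1 differed by -0.98. Monocyte and interstitial macrophage markers had 7 of 14 called higher and 2 lower, with sums of 76.2 to 78.3 and 146 to 152. Alveolar macrophage markers had 1 of 18 called higher and 8 lower, with sums of 1381 to 1548 in WT and 966 to 976 in Bach2KO. T cell markers had 4 of 11 called higher and 1 lower, with sums of 61.6 to 62.0 in WT and 23.7 to 24.1 in Bach2KO. The lower sum in Bach2KO rests on Cd2, the brightest of them in WT, which read 5.76 and 5.77 in WT and 3.85 and 3.82 in Bach2KO, while the other 10 were above 0 and the median difference of the list was 0.76. Neutrophil markers had 3 of 9 called higher and none lower (42.3 to 43.7 and 54.7 to 55.1), and endothelial markers 2 of 5 and none (14.2 to 15.2 and 29.7 to 29.8). Epithelial markers had 2 of 9 called higher and 1 lower (3.95 to 4.02 and 4.87 to 4.90), and B cell markers 1 of 7 and none (2.49 to 2.52 and 3.22 to 3.33). Of the defining genes, Cd3d and Cd3g (T cells), Cd79b (B cells), S100a9 (neutrophils), Lyve1 (interstitial macrophages), Itgb3 (osteoclasts) and Sftpb (epithelium) were not well above background on either WT array and were so on both Bach2KO arrays. The epithelial genes Sftpa1 and Krt8 and the endothelial genes Tek and Emcn were not well above background on any array.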

How the data were processed

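The members, the gene lists and the alternatives were chosen with earlier results of these data known. The authors deposited 1 scanner file per array with spot intensity on a linear scale, background-subtracted and detrended. Per the file headers this was done with version 10.7.3.1 of Agilent's Feature Extraction software, and the submitters' processing notes give 9.1. The deposited value table holds log2 values that equal the scanner files' log2 processed signal minus a constant per array (SD of the difference at most 3.5e-07), with column medians of -3.58, -3.67, -3.53 and -3.45, so scale, centring and direction were settled.

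Control and outlier spots (109 to 136 of 43020 per array) were dropped, replicate spots averaged as log2 values, and the 75th percentile of each array subtracted. No spot was saturated. Probes were kept if both arrays of a genotype were well above background. Of 39429 probes 26055 matched 1 symbol through accessions of a RefSeq table (GRCm38.p6), none several and 13374 none. The brightest probe stood for its gene. Probe coordinates (mm9 per the file headers) are not printed. A gene dim on both arrays of a genotype has only a lower bound, taken per array against its own value or the dimmest signal above background, whichever is higher.

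All members are named, with array values for called members, sorting genes, Mitf/Tfe factors and the extremes of each class. Other lists give up to 4 called genes, and some genes are not reported here. Flcn, Mtor, Ppp3cb, Ppp3r1, Xpo1, the markers and some further array values were added after values were seen. Alternatives were other scalings (median, quantile, 9 E1A spike-in probes), normexp on median spot signals with offset 50 (limma 3.58.1, R 4.3.3), the deposited table, other filters, probes and thresholds, and leaving out arrays. The arrays shared 1 slide, each genotype on neighbouring positions, so effects of position and of genotype cannot be told apart. A planned search for the Maf recognition element used the wrong spacing between its ends and is not reported.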

Additional observations from a re-analysis of the deposited data

How the results depend on the processing

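Calls of Igf2r and Cd63 and the absence of any lower call among the members were the same under each alternative run, except that spike-in scaling called 4 members lower and a 1.5-fold threshold called 1 lower (Ids). With spike-in scaling 627 genes were higher and 3175 lower, members counted 2 higher and 4 lower, and the medians were -0.66 (all measured genes), -0.28 (members), -0.37 (hydrolases), 0.028 (activators), -0.20 (membrane proteins), -0.38 (sorting), 0.14 (proton pump) and -0.57 (Mitf/Tfe). Median centring gave medians, in that order, of -0.071, 0.30, 0.22, 0.61, 0.39, 0.20, 0.72 and 0.011, and it ended the calls of Psap and Atp6v1c1. Quantile normalization gave 0.011 for all genes, 0.34 for members, 0.27 for hydrolases, 0.65 for activators, 0.37 for membrane proteins, 0.76 for the pump and 0.17 for Mitf/Tfe. Normexp with the 75th percentile gave 0.12 for all genes and 0.72 for activators. Normexp with quantile normalization gave 0.0076 for all genes, 0.32 for members, 0.63 for activators, 0.31 for membrane proteins, 0.76 for the pump and 0.18 for Mitf/Tfe. The deposited table gave 0.47 for members, 0.78 for activators, 0.89 for the pump and 0.18 for Mitf/Tfe. Without a filter on dim probes the median of all genes was 0.15, and with the mean of a gene's probes those of hydrolases, membrane proteins and Mitf/Tfe were 0.26, 0.60 and 0.094, and Sgsh was called in addition (1.56). A threshold of 1.5-fold called 2237 genes higher and 1933 lower, 14 and 1 among members, and 3-fold 695 and 410, 2 and 0 among members. Leaving out 1 array in turn gave 7 to 8 members higher (Atp6v1h added without WT replicate 2) and 0 lower. The medians then ran from 0.023 to 0.090 for all genes, 0.46 to 0.56 for membrane proteins and 0.12 to 0.16 for Mitf/Tfe, and every other class kept the sign of its median. The cause of these shifts was not tested, beyond the constant that scaling adds. With the replicate block, which uses only same-numbered arrays, 1301 genes were higher and 916 lower and the members' calls were the same 7. The labels say the numbers mark splits of 1 RNA sample, and deviations of same-numbered arrays correlated at -0.14. The crossed pairing, chosen after seeing the data, gave 1340 and 944.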

Other observations

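Some genes near Igf2r in the RefSeq table were examined. Mas1, Slc22a2, Slc22a3 and Plg were not well above background on any array. Pnldc1 and Mrpl18 differed by 0.77 and 0.24, and neither was called. They were chosen after the value of Igf2r was seen.

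E-boxes were counted in the further lysosomal lists too. CACGTG was present in the windows of 5 of 11 sorting factors, 6 of 22 other membrane proteins, 3 of 16 other hydrolases and cofactors, 1 of 12 other pump subunits and 5 of 17 genes of mTORC1 and Folliculin control, against 8.09% of all genes with a window. In the same order, the median differences of these lists were -0.10, 0.49, 0.93, 0.46 and 0.20. These medians cover all measured genes of a list, with or without an E-box or a window. A relation between E-boxes and these differences was not tested.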
